A study of Mus musculus with 16 samples.

Results

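The genes described here are 10 genes that cells switch on within minutes of a stimulus or a stress: the immediate early genes Fos, Fosb, Junb, Egr1, Atf3, Ier2, Ier3 and Zfp36, and the inducible heat shock genes Hspa1a and Hspa1b. They were chosen by name, as every non-control probe whose RefSeq accession belongs to 1 of the 10. That gave 12 probes for 10 genes among 56605 probes on the array, and all 10 genes were measured among the 15646 genes tested. RNA came from whole mouse kidneys (strain C57BL/6) at embryonic day 17.5, and each of 16 Agilent arrays compared 1 kidney RNA, labelled Cy5, with the RNA of control 1, labelled Cy3. The Ezh2-KO kidneys carried a homozygous conditional deletion of Ezh2 in Six2-positive nephron progenitors, and their labels give Ezh1 as wild type. The Ezh1-het kidneys had the same Ezh2 deletion and 1 germline Ezh1 allele lost, and the double knockout kidneys had it with both Ezh1 alleles lost. The controls are labelled wild type, and the Cre transgene and whether controls carried it are not given in the sources used here. Each of the 4 groups had 4 arrays, which the labels name biological replicates, so a p-value here reflects how far these samples differ among themselves. The Ezh2 deletion reaches only cells of the Six2-positive lineage while the arrays measured all kidney cells, and in such bulk samples fewer cells of a type and less RNA per cell cannot be told apart.

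Immediate early genes need no new protein for their transcription. Kinase cascades that end on factors already present at their promoters, such as serum response factor with its ternary complex partners and the cAMP response element binding protein, start them, and their RNAs decay again quickly. The inducible Hsp70 genes answer a different signal, the release of heat shock factor by unfolded protein. Both sets are known to answer the cutting, warming or loss of blood supply that comes with removal of a tissue, and the kidney is known to induce them after ischaemia. The labels name RNAlater, a preservative, in the RNA isolation, and the time between dissection and preservation is not given in the sources used here, so the part of handling in any value below was not tested.

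Promoters of 8 of the 10 genes were found in a RefSeq table of assembly GRCm38.p6, and 6 are printed here because they belong to the sets of genes that varied together on these arrays. Each run holds the 250 bases before the transcription start, 5′ to 3′ on the strand of the gene. Capitals mark TGACG on either strand (the half-site of the cAMP response element), GCGGGGGCG (an Egr-type site), the CArG box of serum response factor, GAANNTTC (2 opposed heat shock units) and TATAAA.
Fos, chr12:85473640-85473889, plus strand: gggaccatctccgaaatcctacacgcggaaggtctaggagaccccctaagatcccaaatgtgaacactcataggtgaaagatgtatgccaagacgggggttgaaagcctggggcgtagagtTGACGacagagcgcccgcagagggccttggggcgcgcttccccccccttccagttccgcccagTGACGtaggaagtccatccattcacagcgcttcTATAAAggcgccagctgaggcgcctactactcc
Fosb, chr7:19310046-19310295, minus strand: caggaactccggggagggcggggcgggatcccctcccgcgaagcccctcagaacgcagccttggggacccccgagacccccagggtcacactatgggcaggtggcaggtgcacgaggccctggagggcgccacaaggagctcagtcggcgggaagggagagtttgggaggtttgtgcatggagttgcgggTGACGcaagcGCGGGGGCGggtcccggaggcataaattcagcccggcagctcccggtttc
Junb, chr8:84978749-84978998, minus strand: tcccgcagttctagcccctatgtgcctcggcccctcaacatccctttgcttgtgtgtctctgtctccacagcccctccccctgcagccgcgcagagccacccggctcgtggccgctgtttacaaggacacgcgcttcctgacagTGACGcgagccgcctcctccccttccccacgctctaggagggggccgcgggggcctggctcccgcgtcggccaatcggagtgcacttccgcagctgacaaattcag
Zfp36, chr7:28379229-28379478, minus strand: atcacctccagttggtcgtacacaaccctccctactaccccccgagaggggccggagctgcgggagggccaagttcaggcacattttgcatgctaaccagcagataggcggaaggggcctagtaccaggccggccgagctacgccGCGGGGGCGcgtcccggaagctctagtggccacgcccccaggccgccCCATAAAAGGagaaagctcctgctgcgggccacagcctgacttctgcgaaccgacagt
Hspa1a, chr17:34972157-34972406, minus strand: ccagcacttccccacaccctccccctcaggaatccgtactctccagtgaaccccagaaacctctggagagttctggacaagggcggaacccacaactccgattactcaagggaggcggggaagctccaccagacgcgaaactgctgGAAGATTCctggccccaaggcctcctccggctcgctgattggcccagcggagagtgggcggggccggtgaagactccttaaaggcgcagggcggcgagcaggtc
Hspa1b, chr17:34959239-34959488, minus strand: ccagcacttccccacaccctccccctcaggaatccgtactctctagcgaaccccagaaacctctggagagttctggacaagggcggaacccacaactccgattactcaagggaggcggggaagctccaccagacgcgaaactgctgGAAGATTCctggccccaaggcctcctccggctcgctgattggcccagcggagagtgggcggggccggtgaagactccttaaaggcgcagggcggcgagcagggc

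A match of this kind describes letters and not binding. TGACG stood in 4 of the 8 promoters (Fos, Fosb, Junb and Atf3) and in 17.8% of 32851 mouse promoters of the same length. A CArG box stood only in Zfp36 among the 8, and in 1.47% of all promoters, while GCGGGGGCG stood in Fosb and Zfp36 and in 2.57% of all. Sites farther upstream than these windows were not searched, so a gene without a match here may hold one there. GAANNTTC stood in Hspa1a and Hspa1b alone among the 8, and in 6.69% of all promoters, and TATAAA in Fos alone among the 8 and in 12.4% of all. CCAAT, which is not in capitals, stood in Junb, Ier3, Hspa1a and Hspa1b and in 33.8% of all. TGACGTCA, the full response element that contains TGACG, and TGANTCA and TTCNNGAA were searched on both strands and were in none of the 8 windows. The windows of Hspa1a and Hspa1b differed at 3 of 250 bases. The Hspa1a and Hspa1b transcripts are also nearly identical in the mouse, so their probes may share targets and the pair is not counted as independent evidence.

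Values are log2 ratios of Cy5 over Cy3, so 0 means the level of the control 1 RNA. The probe that stands for each of the 10 genes was well above background in Cy5 on all 16 arrays. The array of control 1 set that RNA against itself, and the 10 genes read from -0.21 to 0.24 there. A gene is said to have risen or fallen only where limma's adjusted p over all 15646 genes was under 0.05. The 3 comparisons with control share the 4 control arrays, and the 2 comparisons with Ezh2-KO share the Ezh2-KO arrays. Kidney markers checked the tissue label: 15 of 16 were measured and 12 of them were above background on all arrays, among them Pax2, Six2, Wt1 and Umod. The probe for Ezh1 averaged -4.55 in the double knockout and -1.13 in Ezh1-het, against -0.08 in control. The probe for Ezh2 averaged -0.17 in Ezh2-KO, -0.23 in Ezh1-het kidneys and -0.11 in the double knockout, against 0.11 in control, and whether it lies in the deleted part was not checked. Control 2 had the weakest Cy5 signal (upper quartile of signal over background 5.21, with up to 16.6 on the other arrays), and control 3 had the most extreme score on principal component 1, 37.3 (36.1% of variance).

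Ier3, a stress-inducible regulator of cell survival, rose in Ezh2-KO and in Ezh1-het kidneys, and Atf3, a stress-induced transcription factor of the ATF/CREB family, rose in Ezh1-het kidneys. No other gene of the 10 passed the test in any comparison between genotypes. In Ezh2-KO, 1 of 10 was called, where 3.08% of all genes were called (2.40% upwards). In Ezh1-het, 2 of 10 were called, where 7.81% of all genes were called (5.91% upwards). In the double knockout, 0 of 10 were called by limma and 4 had an unadjusted p under 0.05, where 4.62% of all genes were called (3.71% upwards) and 17.1% had such an unadjusted p. The median log2 difference from control over the 10 genes was 0.64 in Ezh2-KO (all genes 0.06), 0.12 in Ezh1-het kidneys (all genes 0.05) and 0.46 in the double knockout (all genes 0.01).

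**Figure D1:**
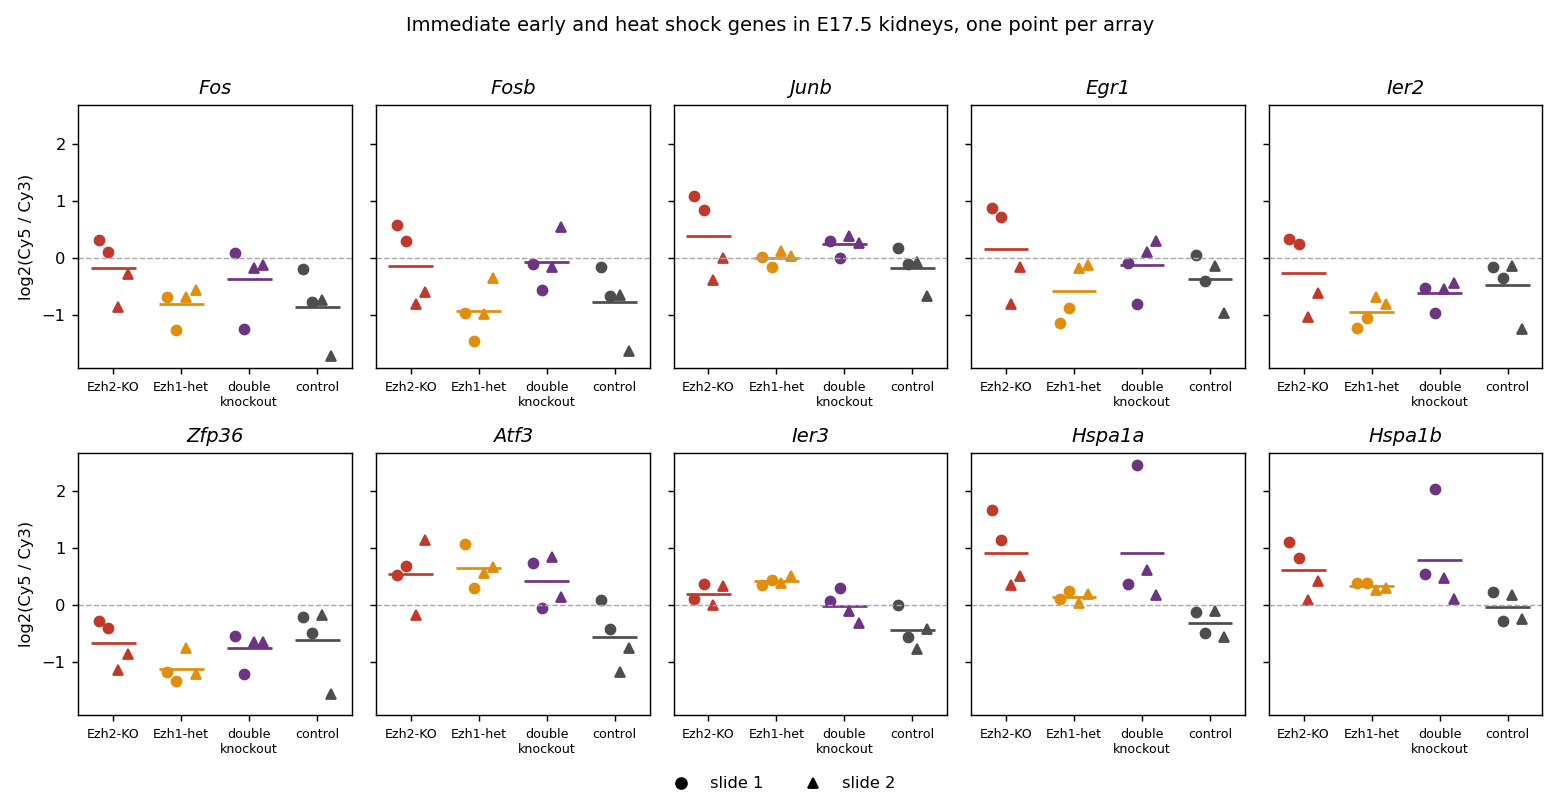
Log2(Cy5/Cy3) of the 10 genes, 1 point per array, in the 4 genotype groups from Ezh2-KO on the left to control on the right, with horizontal bars at the group means; circles are slide 1 and triangles slide 2. The first 6 panels share an order of arrays, with control 4 lowest or near it, while Hspa1a and Hspa1b share 1 high array, double knockout 2, at 2.47 and 2.05.

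Ier3 read 0.11, 0.37, 0.00 and 0.35 in Ezh2-KO 1 to 4 and 0.36, 0.44, 0.40 and 0.51 in Ezh1-het. It read 0.08, 0.31, -0.10 and -0.30 in the double knockout, against 0.01, -0.56, -0.76 and -0.42 in control. All 4 Ezh1-het arrays lay above all 4 controls, while Ezh2-KO 3 at 0.00 fell just under control 1 and 2 double knockout arrays, at -0.10 and -0.30, lay below control 1. The differences were 0.64 (SE 0.15, limma adjusted p = 0.0303) in Ezh2-KO and 0.86 (SE 0.15, limma adjusted p = 0.00286) in Ezh1-het. In the double knockout the difference was 0.43 (SE 0.15, limma adjusted p = 0.128), and whether Ezh1-het differed from Ezh2-KO was itself tested and not called (0.22, SE 0.15). On slide 1 and slide 2 taken apart, Ier3 differed from control by 0.52 and 0.77 in Ezh2-KO, by 0.68 and 1.04 in Ezh1-het, and by 0.47 and 0.39 in the double knockout.

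The Ezh1-het call of Ier3 held without any single array (limma adjusted p up to 0.0135), and the Ezh2-KO call did not. The Ezh2-KO call ended without control 2 (0.60), control 3 (0.53), control 4 (0.64), Ezh2-KO 2 (0.59) or Ezh2-KO 4 (0.59), with limma adjusted p over all settings tried from 0.00818 to 0.302. Without controls 2 and 3 together the differences were 0.42 in Ezh2-KO and 0.64 in Ezh1-het, and neither was called (limma adjusted p 0.302 and 0.0646, with 0.000781 to 0.151 over all settings of the Ezh1-het difference). The double knockout difference was called only without control 1 (0.58) among the fits that left out 1 array.

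Atf3 read 0.54, 0.69, -0.17 and 1.14 in Ezh2-KO and 1.08, 0.30, 0.57 and 0.67 in Ezh1-het. It read 0.75, -0.05, 0.85 and 0.15 in the double knockout, against 0.10, -0.41, -1.17 and -0.75 in control. Every Ezh1-het array was above every control, and 1 array of Ezh2-KO and 1 of the double knockout fell below control 1. Atf3 was 2.32-fold higher in Ezh1-het than in control (log2 difference 1.21, SE 0.29, limma adjusted p = 0.0222). The difference was 1.10 in Ezh2-KO (SE 0.29, limma adjusted p = 0.0517) and 0.98 in the double knockout (SE 0.29, limma adjusted p = 0.0746), neither past the threshold. Both passed it without control 1 (1.32 in Ezh2-KO and 1.20 in the double knockout) or without Ezh2-KO 3 (1.34 and 0.98). With the slide as a block Atf3 was called in Ezh2-KO (1.10), and with array weights in the double knockout (0.97). The Ezh1-het call ended without control 3 (1.01), Ezh1-het 1 (1.07) or Ezh1-het 4 (1.21), and without controls 2 and 3 together (0.98), with limma adjusted p over all settings from 0.00548 to 0.257. By slide, Atf3 differed from control by 0.84 and 1.58 in Ezh1-het.

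**Figure D2:**
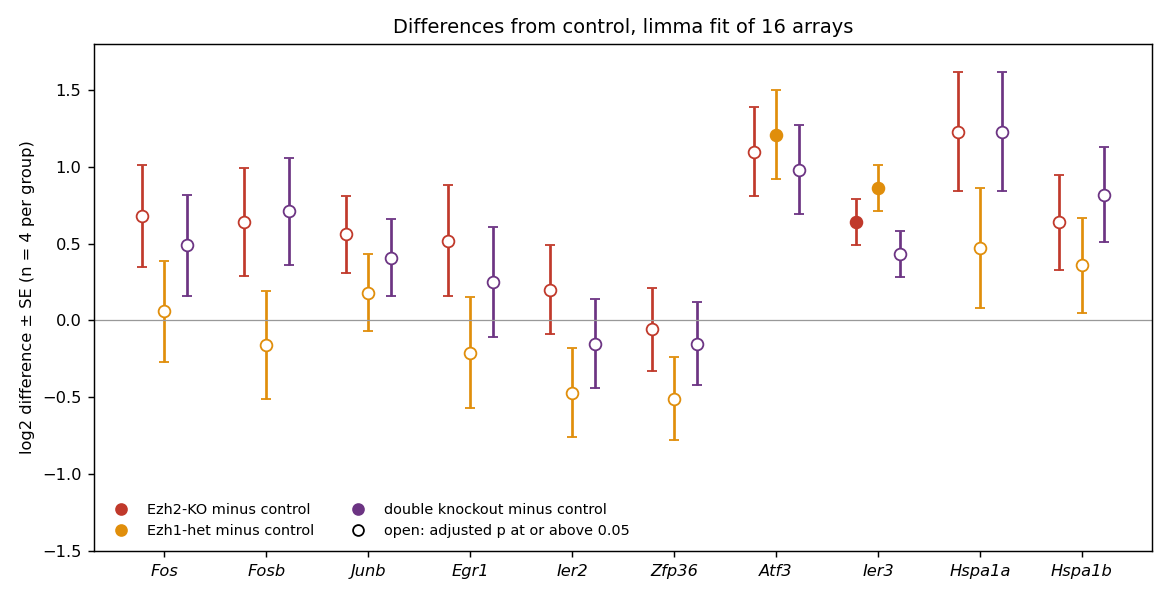
Log2 difference from control (limma estimate, bars 1 SE, 4 arrays per group) of each gene, left to right in Ezh2-KO, Ezh1-het and the double knockout; filled points passed an adjusted p of 0.05. Ier3 is filled for Ezh2-KO (0.64) and Ezh1-het (0.86) and Atf3 for Ezh1-het (1.21), and the estimates of Hspa1a reach 1.23 with SE 0.39.

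Hspa1a and Hspa1b encode the stress-inducible Hsp70 chaperones. Hspa1a read 1.67, 1.14, 0.36 and 0.52 in Ezh2-KO and 0.12, 0.25, 0.05 and 0.20 in Ezh1-het. It read 0.38, 2.47, 0.62 and 0.19 in the double knockout, against -0.12, -0.49, -0.09 and -0.55 in control. All 12 mutant arrays lay above all 4 controls, with an SD of 0.60 in Ezh2-KO, 0.09 in Ezh1-het kidneys and 1.05 in the double knockout, against 0.24 in control. Of all genes, 7.91% had every Ezh2-KO array above every control, 12.6% had every Ezh1-het array there and 6.35% every double knockout array. Among the 10 genes these were Hspa1a in Ezh2-KO, Atf3, Ier3, Hspa1a and Hspa1b in Ezh1-het, and Hspa1a in the double knockout.

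Hspa1a differed from control by 1.23 in Ezh2-KO (SE 0.39, limma adjusted p = 0.0881) and by 1.23 in the double knockout (SE 0.39, limma adjusted p = 0.0890), and neither was called. In Ezh1-het the difference was 0.47 (SE 0.39, limma adjusted p = 0.474). The array of double knockout 2 decided these errors: without it Hspa1a was called in Ezh2-KO at the same difference of 1.23 (limma adjusted p = 0.00923), while the double knockout difference came to 0.71 and was not called. All 4 Ezh1-het arrays of Hspa1a lay below all 4 Ezh2-KO arrays, as was the case for 2.56% of all genes, and the difference of -0.77 was not called (SE 0.39, limma adjusted p = 0.667).

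Hspa1b, the second gene of the pair, read 1.11, 0.83, 0.10 and 0.43 in Ezh2-KO and 0.40, 0.40, 0.27 and 0.30 in Ezh1-het. It read 0.55, 2.05, 0.49 and 0.11 in the double knockout, against 0.24, -0.28, 0.19 and -0.23 in control. Double knockout 2 was again highest and Ezh2-KO 1 next. The differences from control were 0.64 in Ezh2-KO, 0.36 in Ezh1-het kidneys and 0.82 in the double knockout (SE 0.31 each, limma adjusted p 0.253, 0.492 and 0.178), and without double knockout 2 the last of these was 0.40. Across the 16 arrays the ratios of Hspa1a and Hspa1b had a Pearson correlation of 0.96, and the largest gap between them on 1 array was 0.56.

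Fos, Fosb and Junb encode subunits of the AP-1 transcription factor. Fos read 0.32, 0.10, -0.86 and -0.28 in Ezh2-KO and -0.68, -1.27, -0.68 and -0.57 in Ezh1-het. It read 0.08, -1.25, -0.18 and -0.13 in the double knockout, against -0.20, -0.78, -0.73 and -1.72 in control. Ezh2-KO 1 and 2 were the highest arrays and control 4 was the lowest, and every mutant group overlapped the controls. The differences from control were 0.68 in Ezh2-KO, 0.06 in Ezh1-het kidneys and 0.49 in the double knockout (SE 0.33 each, limma adjusted p 0.248, 0.931 and 0.499).

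Fosb, on its brighter probe, read 0.57, 0.29, -0.80 and -0.59 in Ezh2-KO and -0.96, -1.46, -0.98 and -0.35 in Ezh1-het. It read -0.10, -0.57, -0.16 and 0.55 in the double knockout, against -0.15, -0.66, -0.65 and -1.64 in control. The groups overlapped, with Ezh2-KO 1 the highest array and control 4 the lowest. Its differences from control were 0.64 in Ezh2-KO, -0.16 in Ezh1-het kidneys and 0.71 in the double knockout (SE 0.35 each), none called. The second Fosb probe was dimmer and gave -0.04 in Ezh2-KO, -0.30 in Ezh1-het kidneys and 0.30 in the double knockout, so the probes disagreed on Ezh2-KO (r = 0.71 between them over 16 arrays). Its 4 double knockout values were close together, at 0.38, 0.47, 0.36 and 0.52.

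Junb read 1.09, 0.85, -0.38 and 0.00 in Ezh2-KO and 0.01, -0.15, 0.13 and 0.04 in Ezh1-het. It read 0.30, 0.00, 0.38 and 0.27 in the double knockout, against 0.18, -0.11, -0.07 and -0.67 in control. Ezh2-KO held both the 2 highest arrays and, after control 4, the lowest one. Its differences from control were 0.56 in Ezh2-KO, 0.18 in Ezh1-het kidneys and 0.41 in the double knockout (SE 0.25 each, lowest limma adjusted p 0.221). A second Junb probe was above background on only 7 of 16 arrays.

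Egr1, a zinc finger transcription factor induced by growth factors, read 0.87, 0.72, -0.81 and -0.15 in Ezh2-KO and -1.14, -0.88, -0.18 and -0.12 in Ezh1-het. It read -0.08, -0.80, 0.11 and 0.29 in the double knockout, against 0.05, -0.41, -0.14 and -0.97 in control. The Ezh2-KO arrays of slide 1 were the 2 highest of the study, and the Ezh1-het arrays of slide 1 included the lowest. The differences were 0.52 in Ezh2-KO, -0.21 in Ezh1-het kidneys and 0.25 in the double knockout (SE 0.36 each), none called.

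Ier2, a small nuclear protein of the early response, ranged from -1.04 to 0.34 in Ezh2-KO, from -1.22 to -0.68 in Ezh1-het and from -0.96 to -0.43 in the double knockout, against -1.24 to -0.14 in control. Zfp36, the protein tristetraprolin that binds AU-rich messenger RNAs and speeds their decay, ranged from -1.13 to -0.27 in Ezh2-KO, from -1.33 to -0.75 in Ezh1-het and from -1.20 to -0.53 in the double knockout, against -1.55 to -0.17 in control. Neither gene separated any group from control. The differences of Ier2 were 0.20 in Ezh2-KO, -0.47 in Ezh1-het kidneys and -0.15 in the double knockout (SE 0.29 each). Those of Zfp36 were -0.06 in Ezh2-KO, -0.51 in Ezh1-het kidneys and -0.15 in the double knockout (SE 0.27 each). Zfp36 in Ezh1-het passed the threshold without control 4 (-0.83) and in no other fit that left out 1 array.

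The spread inside genotype groups was large for 9 of the 10 genes. The within-group SD of the log2 ratio over 16 arrays (12 residual degrees of freedom) had a median of 0.485 over the 10 genes and of 0.156 over all genes. Its percentile among all genes was 95.6 to 98.3 for 9 genes, with Hspa1a highest (SD 0.620), and 80.5 for Ier3 (SD 0.227). A large spread was not particular to these genes. The median SD was 0.657 over 6 liver genes, 0.582 over 6 red blood cell genes and 0.418 over 15 kidney markers. It was 0.237 over the other immediate early genes and 0.153 over the other heat shock genes. The remaining lists of cell markers and regulators lay between 0.125 and 0.394. The spread of the 10 genes sat in the Cy5 channel. There the median SD was 0.515 over the 10 genes and 0.172 over all genes, while in the Cy3 channel, which carries the same RNA on every array, it was 0.0933 over the 10 genes and 0.0939 over all genes. By group, the median SD of the 10 genes was 0.573 in Ezh2-KO, 0.246 in Ezh1-het kidneys and 0.451 in the double knockout, against 0.483 in control. All genes had 0.134, 0.117 and 0.146 in those mutant groups, against 0.168 in control. Without any single array the median over the 10 genes stayed between 0.440 and 0.507.

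**Figure D3:**
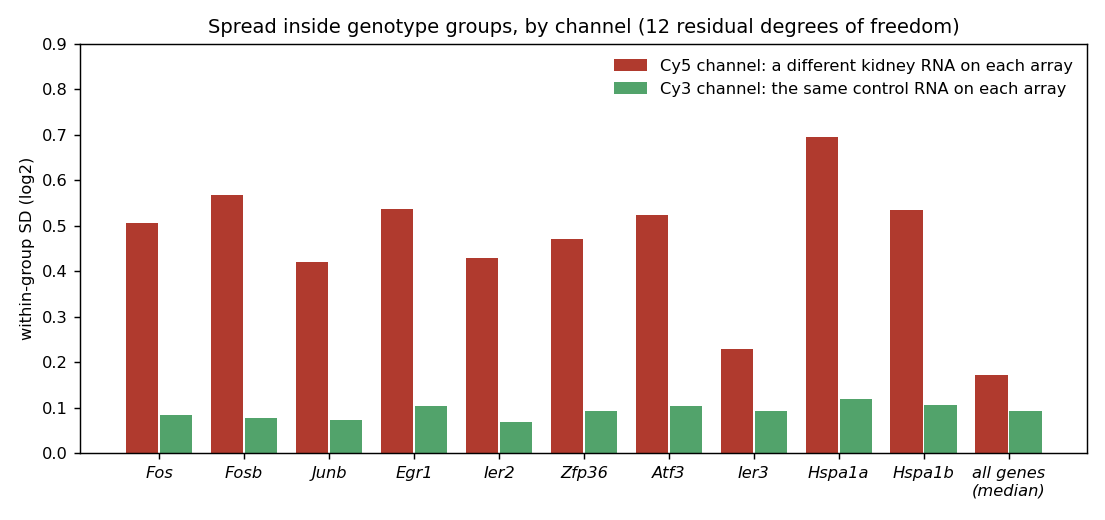
Within-group SD (log2) of each gene, in Cy5 (a different kidney RNA per array, left bars) and in Cy3 (the same control 1 RNA on every array, right bars), with the median of all 15646 genes at the right. The Cy5 bars of 9 genes lie between 0.420 and 0.695 and that of Ier3 at 0.229, while the Cy3 bars lie between 0.0697 and 0.119.

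Over all 16 arrays, Pearson r within groups did not place the 10 genes in 1 block. Deviations from the group means correlated at r = 0.78 to 0.94 (median 0.86, 15 pairs, 16 arrays) among Fos, Fosb, Junb, Egr1, Ier2 and Zfp36, and at 0.71 to 0.95 (median 0.82) over the 12 arrays without Ezh2-KO. These 6 genes were put together after the correlations were seen, and the points share the Cy3 RNA, so the values are descriptions. The same 6 genes correlated with Hspa1a and Hspa1b at -0.17 to 0.31 (median 0.04, 12 pairs). By Spearman rank correlation these pairs stood higher, at 0.11 to 0.47. Double knockout 2 was low for the 6 genes (mean -0.80) and highest for Hspa1a and Hspa1b (mean 2.26). It weighs on the Pearson values of these pairs, which were not computed without it. Hspa1a and Hspa1b correlated with each other at 0.98. Atf3 stood between, with r = 0.60 to Fos and 0.26 to 0.39 to the other 5, and Ier3 ran with none of the 6 (-0.09 to 0.11) and with Hspa1b at 0.53.

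**Figure D4:**
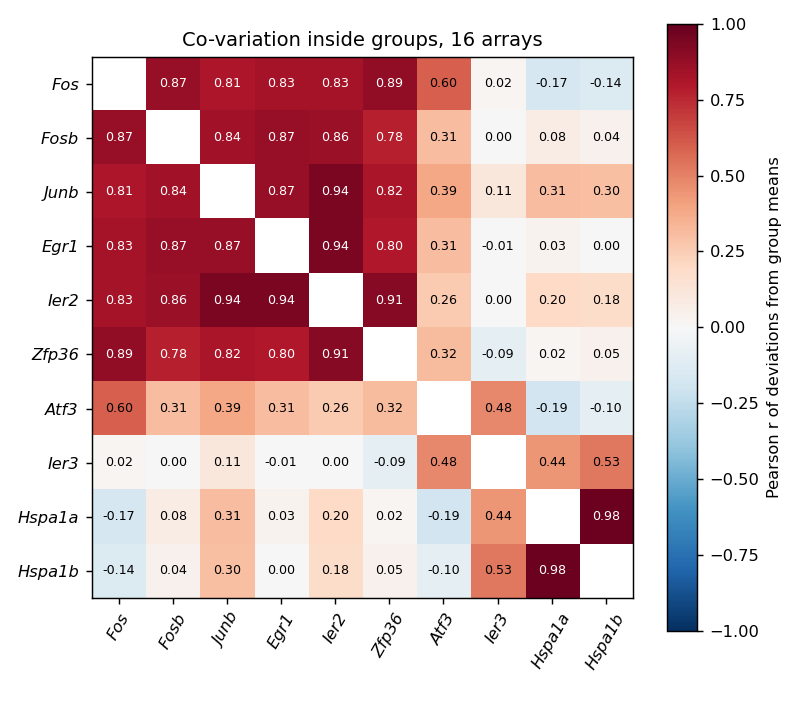
Pearson r between genes of their deviations from the group means over 16 arrays (colour scale from -1 in blue to 1 in red). The upper left block of Fos, Fosb, Junb, Egr1, Ier2 and Zfp36 holds 0.78 to 0.94, the Hspa1a and Hspa1b pair 0.98, and the fields between the 2 blocks -0.17 to 0.31. All values include double knockout 2.

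Of the single arrays, double knockout 2 had the 6 genes and the Hspa1a and Hspa1b pair farthest apart in mean log2 ratio. Both means had the same sign only on Ezh2-KO 1 and 2 and on controls 2 and 4. On Ezh1-het 1 to 4 the 6 genes averaged -0.86, -1.02, -0.52 and -0.50. Hspa1a and Hspa1b averaged 0.26, 0.32, 0.16 and 0.25 there, and 0.23 and 0.47 on Ezh2-KO 3 and 4. These are the same values that gave the correlations. The mean log2 ratio of the 6 genes was 0.49 and 0.30 on Ezh2-KO 1 and 2 and -0.84 and -0.42 on Ezh2-KO 3 and 4. It was -0.80 on double knockout 2 and -1.30 on control 4, the lowest array. Double knockout 2 had at the same time the highest mean of Hspa1a and Hspa1b, at 2.26, while on Ezh2-KO 1 and 2 both means were high (1.39 and 0.98 for Hspa1a and Hspa1b). On control 4 both were low, with -0.39 for Hspa1a and Hspa1b.

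**Figure D5:**
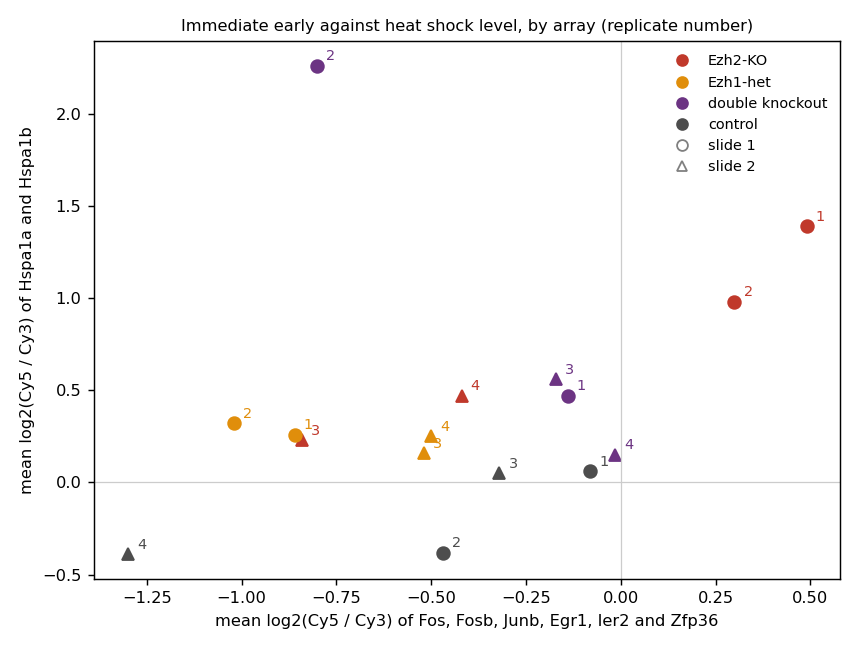
Mean log2(Cy5/Cy3) of Hspa1a and Hspa1b (vertical axis) against that of Fos, Fosb, Junb, Egr1, Ier2 and Zfp36 (horizontal axis), 1 point per array numbered by replicate, coloured by genotype, circles for slide 1 and triangles for slide 2. Double knockout 2 stands alone at 2.26 on the vertical and -0.80 on the horizontal axis, Ezh2-KO 1 and 2 lie at the upper right, and control 4 lies at the lower left.

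Markers of other cells moved with some of these arrays. Of 11 neutrophil genes 9 were measured, and their mean log2 ratio was 1.86, 0.69, 0.97 and 0.12 in Ezh2-KO 1 to 4. It was -0.29 to 0.14 in Ezh1-het kidneys and -0.28 to 0.12 in the double knockout, against -0.38 to 0.06 in control. Of these 9, 5 were called higher in Ezh2-KO, where 2.40% of all genes were. That count includes the dim genes Stfa1 and Stfa3 and is not read as a result. The differences of the 9 genes were positive for 8 and negative for 1 (-0.25, not called). S100a9, S100a8 and Stfa2 rose in Ezh2-KO (2.44, 1.76 and 1.29), each above background on 4 Ezh2-KO arrays and on 3 control arrays. Stfa1 and Stfa3 also passed the test, but were above background on 1 control array each, so no difference is given for them. Stfa3 was above background on 4 Ezh2-KO, 2 Ezh1-het, 0 double knockout and 1 control arrays. It therefore met the limit of 4 arrays only through Ezh2-KO. The neutrophil means include both genes. The markers Ngp and Ltf were above background on too few arrays to be tested. Elane, another of the 9, fell in Ezh1-het (-0.36, SE 0.08, limma adjusted p = 0.0173), where 7.81% of all genes were called. Ezh2-KO 1 had the highest neutrophil mean and the highest mean of the 6 genes, while Ezh2-KO 3 had the second highest neutrophil mean and a mean of the 6 genes of -0.84. The 15 kidney markers ran from -0.86 to 0.25 in Ezh2-KO, -0.03 to 0.25 in Ezh1-het and -0.92 to -0.43 in the double knockout, against -0.87 to 0.03 in control. The 6 red blood cell genes ran from -0.05 to 0.64 in Ezh2-KO and from -0.11 to 0.61 in Ezh1-het. They ran from -2.00 (double knockout 4) to -0.14 in the double knockout, against -0.34 to 0.29 in control. The part of cell content in the values of the 10 genes was not tested.

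The arrays lay on 2 slides, with replicates 1 and 2 of each genotype on slide 1 and replicates 3 and 4 on slide 2. All 10 genes read lower on slide 2 (-0.52 to -0.04), where 61% of all genes read higher. Of the 10, limma called none (0 of 10, with 1 unadjusted p under 0.05, Hspa1b), where it called 0% of all genes and 10.9% had such an unadjusted p. The difference between slides in the effect of a genotype was called for 0 of the 10 genes in each genotype. In Ezh2-KO that background was 0.0128% of all genes, and in Ezh1-het and the double knockout it was 0%. In Ezh2-KO 1 gene of the 10 (Junb) had an unadjusted p under 0.05, as did 15.6% of all genes. Fosb and Egr1 had one in Ezh1-het (2.80% of all genes) and also in the double knockout (2.12%). Egr1 gives the size of these shifts: it differed from control by 0.97 on slide 1 and 0.07 on slide 2 in Ezh2-KO, and by -0.83 and 0.41 in Ezh1-het, each from 2 arrays per group.

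Between mutants, limma called 0 of the 10 genes in Ezh1-het against Ezh2-KO, with an unadjusted p under 0.05 for Fosb and Ier2, where 0.0575% of all genes were called and 7.37% had such an unadjusted p. The median difference over the 10 genes was -0.54 (all genes -0.01), and 8 of 10 were lower in Ezh1-het. Of all genes, 48.3% were higher in Ezh1-het. Many of the 10 genes varied together, so their signs are not independent. In the double knockout against Ezh2-KO limma called 0 of 10, with 0 at an unadjusted p under 0.05, where 0.914% of all genes were called and 12.7% had such an unadjusted p, and the differences ran from -0.35 to 0.18.

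Other immediate early genes showed a few calls of the same kind. Of 53 measured, 3 rose in Ezh2-KO, where 2.40% of all genes did. In Ezh1-het 5 rose and 1 fell, where 7.81% of all genes were called in either direction, and in the double knockout 4 rose, where 3.71% of all genes did. Cebpb, a leucine zipper factor of acute phase and differentiation programmes, rose in all 3, with differences of 0.67, 0.79 and 0.70 (SE 0.13 each, limma adjusted p 0.0104 in Ezh2-KO, 0.00200 in Ezh1-het kidneys and 0.00340 in the double knockout). It read 0.28 to 0.64 in Ezh2-KO, 0.48 to 0.61 in Ezh1-het and 0.36 to 0.51 in the double knockout, against -0.69 to 0.12 in control, with no mutant array below a control. These calls held without any single array, and the Ezh2-KO call ended without controls 2 and 3 together (0.45). The orphan nuclear receptor Nr4a2 rose by 0.77 in the double knockout (SE 0.10, limma adjusted p = 0.000118), a call that held without any single array. Its rise of 0.37 in Ezh2-KO held in 4 of the 16 fits that each left out 1 array (0.31 to 0.45).

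The calls that ended in some fit without 1 array were more numerous. Some of them ended with the difference hardly changed. Ccn2 in Ezh1-het lost its call without Ezh2-KO 2, an array outside that comparison, at a difference of 0.71. Egr4, a relative of Egr1, read 1.27, 0.47, 1.32 and 1.92 in the double knockout, against 0.15, -0.67, 0.35 and -1.12 in control. It rose by 1.57 (SE 0.38, limma adjusted p = 0.0245), and the call ended without double knockout 1, 3 or 4 or control 2 or 4 (at most 1.56). Nfil3 rose in Ezh2-KO (0.46, SE 0.10), a call that ended without Ezh2-KO 2 (0.43) or control 4 (0.40). In Ezh1-het Gadd45a (0.48), Cebpd (0.75), Csrnp1 (0.58) and Ccn2 (0.71) rose, and in the double knockout Csrnp1 (0.58) rose. Of the 16 fits without 1 array each, the Ezh1-het calls held in 15, 12, 10 and 5 in that order and the double knockout call in 6. Socs3, a cytokine-induced inhibitor of JAK signalling, was the gene that fell (-0.98 in Ezh1-het, SE 0.25, limma adjusted p = 0.0271). Its call held in 11 of those 16 fits and ended without control 1 or 2 or Ezh1-het 1, 2 or 4.

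Of 32 other heat shock genes measured, 3 rose in Ezh2-KO (2.40% of all genes), 5 in Ezh1-het kidneys (5.91%) and 3 in the double knockout (3.71%), and none fell against control. Dnaja4, an Hsp40 co-chaperone, read 0.31 to 0.67 in Ezh2-KO, 0.37 to 0.65 in Ezh1-het and 0.19 to 0.67 in the double knockout, against -0.40 to -0.12 in control. It rose by 0.79, 0.84 and 0.68 (SE 0.11 each, limma adjusted p 0.00190, 0.000485 and 0.00163), without overlap with the controls, and these calls held without any single array. The small heat shock protein gene Hspb1 rose by 0.76 in Ezh1-het kidneys and 0.88 in the double knockout (SE 0.16 each, limma adjusted p 0.0119 and 0.00383), and Cryab, another small heat shock protein, rose by 0.99 in Ezh1-het (SE 0.20, limma adjusted p = 0.00840). Those 3 calls also held without any single array. Hspa2 rose in all 3 (0.37, 0.44 and 0.35), a call that held in 5, 16 and 6 of the 16 fits without 1 array. Bag3, a co-chaperone, rose in Ezh2-KO (0.35, in 7 of 16) and Hspb8, a small heat shock protein, in Ezh1-het (0.49, above background on 4 Ezh1-het and 3 control arrays, ending without Ezh1-het 4). Hspa5, the Hsp70 of the endoplasmic reticulum, fell in the double knockout against Ezh2-KO (-0.50, SE 0.11, limma adjusted p = 0.0366, in 6 of 16). With its 3 probes averaged the difference was -0.19 and with the authors' ratio -0.40, and neither was called.

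Among 14 regulators upstream of these genes, 1 was called in Ezh2-KO, where 3.08% of all genes were, and 1 in Ezh1-het, where 7.81% were. In both it was Elk4, a ternary complex factor that works with serum response factor. Elk4 fell in Ezh2-KO (-0.51, SE 0.12, limma adjusted p = 0.0343) and in Ezh1-het (-0.54, SE 0.12, limma adjusted p = 0.0149). It read -0.32 to -0.07 in Ezh2-KO and -0.44 to -0.07 in Ezh1-het, against 0.13 to 0.76 in control, where control 2 was highest. The Ezh2-KO call ended without Ezh2-KO 1, 2 or 4 or control 2 (-0.53 to -0.36), and the Ezh1-het call without Ezh1-het 2 (-0.47). With its 3 probes averaged, Elk4 differed by -0.20 in Ezh2-KO, not called, and by -0.28 in Ezh1-het, called. No regulator rose in these 3 comparisons with control, and in the double knockout limma called 0 of 14, with 3 at an unadjusted p under 0.05, where 4.62% of all genes were called and 17.1% had such an unadjusted p.

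Among the genes outside the 10 whose within-group deviations ran most like the mean of the 10, by Pearson r over 16 arrays, were Id1 (0.93), Pla2g5 (0.90), Spry1 (0.89), Ppp1r15a, Lag3 and Dusp2 (0.88 each) and Rpp25 (0.87). Id1, a dominant negative helix-loop-helix protein, kept r = 0.85 without the 2 arrays farthest out, Ezh2-KO 3 and control 4. Spry1, which restrains receptor tyrosine kinase signalling, and Dusp2, a phosphatase of MAP kinases, kept 0.84 and 0.80. Pla2g5 was above background on only 9 arrays. The median r over all genes was -0.02 and 6.90% of genes had r above 0.5. Of the 53 other immediate early genes 24 (45.3%) had r above 0.5, and of the 32 other heat shock genes 3 (9.38%).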

How the data were processed

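Kidney RNA was measured on 16 two-colour Agilent arrays. Spots were quantified with Agilent Feature Extraction 10.7.3.1, per the submitters' processing notes, and the authors deposited its intensity columns per array. The deposited log10 ratio column, which the authors' value table repeats to within rounding, is the processed Cy5 over Cy3 on a log10 scale and was used as an alternative. Promoter coordinates are those of RefSeq on GRCm38.p6, a later build than the one in the file headers.

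Median spot intensities were corrected with normexp (offset 50) and loess-normalised within arrays in limma 3.58.1 under R 4.3.3, giving control spots a weight of 0 and dropping spots that carried an outlier mark. Log2 ratios were averaged over the spots of a probe, probes needed a Cy5 signal well above background on at least 4 of 16 arrays, and the brightest probe stood for its gene. Files hold median and not mean signals. Symbols came from RefSeq by accession. Groups were compared with lmFit and eBayes over all 16 arrays, two-sided, with Benjamini-Hochberg adjustment within each comparison at 0.05. Channel levels were taken after Aquantile scaling. The fit was tested on simulated data with independent noise. That simulation held no co-variation among genes and no outlying array, so it does not cover those features of these data. The number of arrays and the signal over background limit the precision. All 10 genes and every probe of them are described. From the lists of other immediate early genes, other heat shock genes and regulators, every gene past the threshold is named, and for likeness the 8 genes with the highest r, of which 1 is not reported here. The genes and lists were chosen with earlier results of these data known.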

Additional observations from a re-analysis of the deposited data

Results flagged for a closer look

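In 48 combinations of probe and group, 2 held an array whose gap to the nearest other array, divided by the range of the group, was above Dixon's 95% critical value for 4 arrays. Chance alone gives about 1 in 20. Fos on Ezh1-het 2 read -1.27, with the other Ezh1-het arrays between -0.68 and -0.57 (gap ratio 0.843). Zfp36 on double knockout 2 read -1.20, with the other double knockout arrays between -0.64 and -0.53 (gap ratio 0.836). Double knockout 2 is also the array with the highest Hspa1a and Hspa1b.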

How the results depend on the processing

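The count of the 10 genes called in Ezh2-KO was 1. It was 8 with median centring, 2 with array weights (Ier3 and Hspa1a) or the slide as a block (Ier3 and Atf3), 1 on slide 1 alone (Junb and not Ier3), 0 without controls 2 and 3, on slide 2 alone or with only the 2 groups fitted, and 0 to 2 without 1 array. In Ezh1-het it was 2, with 0 without controls 2 and 3 and on slide 1 or slide 2 alone, 3 with median centring (Junb beside Atf3 and Ier3), and 1 to 3 without 1 array. In the double knockout it was 0, with 7 under median centring, 2 with array weights and 0 to 2 without 1 array. On slide 1 alone Ezh1-het against Ezh2-KO gave 5 and the double knockout against Ezh2-KO gave 1, where both had 0 over all arrays, and the slide difference of Ezh2-KO gave 0 to 2 without 1 array. The share of all genes called in these settings is not given here, so these counts are not read as a result about the 10 genes. Median centring moved the median difference of all genes to 0.41 in Ezh2-KO, 0.44 in Ezh1-het kidneys and 0.38 in the double knockout and called 43.7%, 51.4% and 34.3% of them. The replicate number as a block gave counts of 1, 2 and 0 for the comparisons with control, the same as without it. Deviations of same-numbered arrays correlated at -0.48 to 0.51, so the numbers were not taken to pair the samples. Some differences that were not called changed sign. Without 1 array, Ier2 in Ezh2-KO ran from -0.053 to 0.46, Zfp36 in Ezh2-KO from -0.37 to 0.098, Fos in Ezh1-het from -0.23 to 0.28, Fosb in Ezh1-het from -0.45 to 0.05 and Zfp36 in the double knockout from -0.46 to 0.0034. On slide 2 alone Ier2 in Ezh2-KO gave -0.14. Zfp36 in Ezh2-KO gave 0.018 with the authors' ratio, 0.40 with median centring, 0.083 with array weights, 0.22 without controls 2 and 3 and 0.014 on slide 1. In Ezh1-het Fos gave -0.074 with array weights and -0.48 on slide 1, Fosb 0.40 with median centring and 0.49 on slide 2, Junb -0.10 on slide 1, Egr1 0.44 with median centring and 0.41 on slide 2, and Ier2 0.092 with median centring. In the double knockout Fos gave -0.093 and Egr1 -0.26 on slide 1. There Ier2 gave 0.38 with median centring, 0.079 without controls 2 and 3 and 0.20 on slide 2, and Zfp36 gave 0.32, 0.13 and 0.22 in those settings. The cause was not tested.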

Other observations

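Among other heat shock genes, Dnajb1 ran most with the mean of the 10 genes (r = 0.66, 16 arrays) and Hsp90b1 most against it (-0.63). Among regulators, Srf, serum response factor itself, ran with it at 0.84, while Elk4 did not (-0.01). Of other immediate early genes, Nr4a1 had r = 0.85 and Dusp1 0.63, while Jun had 0.37 and Cebpb -0.38. These are descriptions over arrays that share the Cy3 RNA.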
